A study of Mus musculus with 9 samples.

Results

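The amino acid transporter genes examined here in NPK mouse prostate cancer cells were the cystine carrier gene Slc7a11 and 9 further genes, Slc7a5, Slc3a2, Slc7a1, Slc7a6, Slc1a4, Slc1a5, Slc38a1, Slc38a2 and Slc6a9. They were chosen from the deposited table by symbol, and Slc7a11 was selected on measured values, since it had been noted for its large difference between MCTP-treated and control cells. All 10 had a value, among 12842 genes in the table. For these genes the MCTP values are therefore given as a description without a test. The comparison with shNsd2 cells, which was not the stated ground for the choice, was tested. The genes were, however, chosen with earlier results of these data known. Both comparisons share the same 3 control libraries.

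NPK cells come from lung metastases of mice in which a tamoxifen-inducible Cre recombinase expressed from the Nkx3.1 locus acts in the prostate and switches on a YFP reporter. The cells were profiled in culture by sequencing of polyadenylated RNA, in 3 groups of 3 libraries. The control group comprised cells labelled only as control, and whether they carried a control shRNA or received a solvent is not stated. Elsewhere the paper describes an shRNA against luciferase as the control for silencing and DMSO as the vehicle for MCTP-39, without tying either to these libraries. The shNsd2 group comprised cells in which Nsd2, a histone methyltransferase gene, was silenced by shRNA. Every title in this group names Nsd2, but the source field gives Nsd2 for 1 library, Nsd3 for another and Nsd4 for the last, and the shRNA used is not given. The MCTP group comprised cells treated with compounds labelled MCTP39, MCTP40 and MCTP41, 1 library each. The paper names only the first of these, a hydrazinoquinoxaline thiol used as an inhibitor of NSD2, so whether the 3 libraries are replicates of a single compound cannot be told. Dose and duration were not given for these cells. Nothing states that libraries of a group came from separate cultures, so the p-values measure only the spread between these libraries, which may be technical. The deposited values are on a log2 scale, by a transform that is not named, from 1.63 to 18.47, and carry no read counts, so depth is unknown.

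Amino acid transporters supply cells with substrates for protein, nucleotide and glutathione synthesis. Slc7a11 encodes the light chain of the exchanger that imports cystine and exports glutamate, and it is joined at the plasma membrane to the heavy chain encoded by Slc3a2, which also carries the light chains of Slc7a5 and Slc7a6. Several of these genes are known targets of the transcription factor ATF4, which is translated when amino acids are scarce, and Slc7a11 is also a target of the oxidative stress factor NRF2, the product of Nfe2l2.

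The labels were first checked on Nsd2, which the table lists as Whsc1. Its value was 12.48, 12.43 and 12.42 in the control libraries, 11.56, 11.61 and 11.68 in the shNsd2 libraries, and 12.15, 12.21 and 12.07 in the MCTP libraries. It fell with shNsd2 by 0.83 on the log2 scale (standard error 0.0408, limma adjusted p = 2.26e-06), and with MCTP by 0.30 (standard error 0.0537, limma adjusted p = 0.00562). Markers of prostate epithelium were present: 7 of 10 had a value, and 6 of these exceeded 3.78, the filter value, in all 9 libraries. Krt8 had the highest level per length among them, whereas Epcam lay below the filter value in every library. Of other cell types, 3 of 7 fibroblast markers had a value, with a summed level, as log2 of the sum, of 8.34, 8.23 and 8.33 in control, 8.01, 8.07 and 8.02 in shNsd2, and 8.07, 8.04 and 7.90 in MCTP libraries, with Col1a1 the most abundant per length. These markers did not move together: Col1a1 fell with shNsd2 (-0.30, limma adjusted p = 0.00111) and with MCTP (-0.33, limma adjusted p = 0.0105), whereas Pdgfra rose with shNsd2 (0.13, limma adjusted p = 0.00161) and lay above all control libraries in the MCTP libraries (0.05, limma adjusted p = 0.0955). Of 6 leukocyte markers only Cd68 had a value, of 6.50, 6.51 and 6.60 in control, 6.78, 6.78 and 6.72 in shNsd2, and 7.20, 7.15 and 7.44 in MCTP libraries. The fibroblast marker Dcn, which was higher in every MCTP library (2.44 to 2.50) than in the control libraries (2.31 to 2.34), the endothelial marker Cdh5, which alone of 4 had a value, and the lung epithelial marker Foxj1, likewise alone of 4, were below the filter value throughout. Also below it, Cdh5 was higher in every shNsd2 library (3.66 to 3.71) than in the control libraries (3.48 to 3.52), as was Epcam (3.71 to 3.76 beside 3.54 to 3.55). The part of these markers in the results below was not tested.

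Some libraries stood apart from the rest of their groups. The deviations of control replicate 1, MCTP replicate 2 and shNsd2 replicate 3 from their group means went together across genes (correlations of 0.80, 0.64 and 0.84 between pairs of them), so the counts below are also given without these 3 libraries. Without them, 7423 of all genes were called with shNsd2 in place of 5836, and 7575 with MCTP in place of 4305. Counts given below without these libraries are to be read beside these totals, not beside the shares of the full comparisons. The libraries left out were picked from these same values, and fewer libraries remain in each group. Adjusted p-values from fits without them may therefore understate the spread between libraries.

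In the MCTP libraries all 10 transporter genes were lower than in every control library. The median difference over the 10 genes was -0.59, beside -0.01 over all 12216 genes tested, and it was -0.64 without the libraries that stood apart. Among all genes, 24.8% had MCTP libraries entirely below the control libraries and 25.8% entirely above. Since the list holds a gene picked for this difference, nothing is read from that count. In bulk RNA, fewer cells that express a gene and less RNA per cell cannot be told apart.

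With shNsd2 the same genes did not move as a group. Of the 10, 4 rose (Slc7a1, Slc7a6, Slc38a1 and Slc6a9), Slc7a11 fell, and 5 did not pass an adjusted p of 0.05, with a median difference of 0.08 beside 0.00 over all 12205 genes tested. This is a share of 5 in 10, beside 47.8% of all genes, of which 23.1% were higher and 24.8% lower. The libraries of both groups did not overlap for the same 4 rises and 1 fall, beside 28.1% and 29.1% of all genes. The count depended on the fit: it was 2 (Slc6a9 and Slc7a11) with a replicate block and 1 (Slc6a9) with all 9 libraries in a single fit. Leaving out control replicate 2 or shNsd2 replicate 2 gave 2 calls, and leaving out shNsd2 replicate 1 or 3 gave 3. Without the libraries that stood apart, 6 were called, 3 higher and 3 lower, and after GC correction or quantile normalization 6 were called, 4 higher and 2 lower. Calls over all genes, 5836 of 12205 above, were 4515 with the block and 4320 in the single fit. Without control replicate 2 they were 4774, and without shNsd2 replicates 1, 2 or 3 they were 4462, 4340 and 5655. Without the libraries that stood apart they were 7423, after GC correction 6683 and after quantile normalization 5880.

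**Figure D1:**
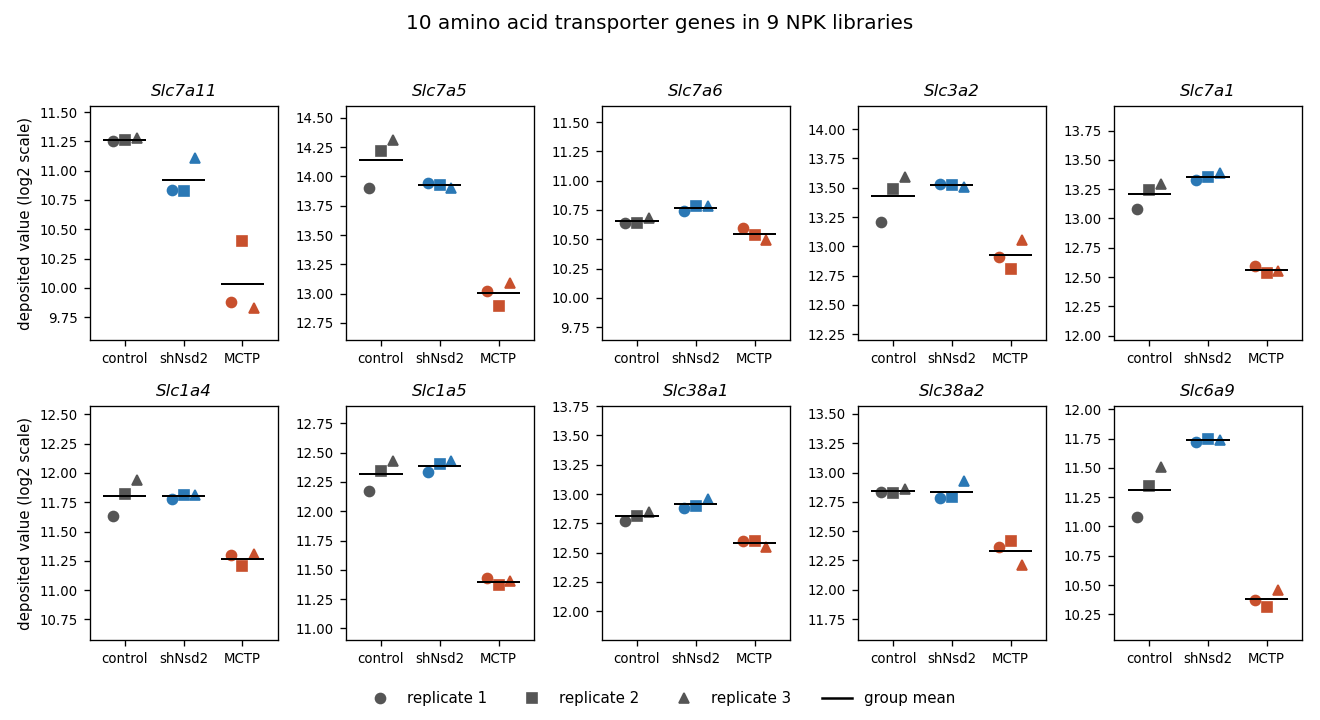
Each panel plots the deposited value (log2 scale, vertical axis spanning the same range of log2 units in every panel) of 1 transporter gene in the 3 control, 3 shNsd2 and 3 MCTP libraries, with horizontal bars for group means. All MCTP libraries lie below all control libraries in every panel. The control libraries of Slc7a5, Slc3a2, Slc7a1, Slc1a4, Slc1a5 and Slc6a9 are spread more widely than their shNsd2 libraries.

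The light chains were considered first. Slc7a11 (ENSMUSG00000027737.5, GRCm38 chromosome 3, 49892526 to 50443614, - strand) had values of 11.26, 11.26 and 11.28 in the control libraries, 10.84, 10.82 and 11.11 in the shNsd2 libraries, and 9.88, 10.40 and 9.83 in the MCTP libraries. The 3 groups were ordered without overlap, control above shNsd2 above MCTP, and the control libraries lay close together (SD 0.0112, n = 3) while the MCTP libraries were the most scattered (SD 0.315, n = 3). The MCTP mean differed from the control mean by -1.23 (standard error 0.138), or 42.6% of control if the difference is read as a log2 ratio. Percentages of control below were obtained in the same way and are approximate, since the transform is not named. With shNsd2, Slc7a11 fell by 0.34 (standard error 0.0691, limma adjusted p = 0.00359) to 78.9% of control, and the call was kept in all 6 fits that left out a library, with a difference from -0.43 to -0.29. With all 9 libraries in a single fit its adjusted p from limma was 0.0767. The MCTP40 library and the third shNsd2 library, both among those that stood apart, were the highest of their groups, and without these and control replicate 1 the differences were -1.42 with MCTP and -0.44 with shNsd2.

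Slc7a5 (ENSMUSG00000040010.8, chromosome 8, 121881150 to 121907694, - strand) encodes the light chain that exchanges large neutral amino acids such as leucine. Its values were 13.90, 14.22 and 14.31 in control, 13.94, 13.93 and 13.90 in shNsd2, and 13.03, 12.89 and 13.09 in MCTP libraries. The MCTP mean was 45.4% of control, a difference of -1.14 (standard error 0.109), similar in size to that of Slc7a11 but with closely spaced MCTP libraries. With shNsd2 the difference was -0.22 (standard error 0.0897, limma adjusted p = 0.0752), and the groups overlapped because control replicate 1 lay as low as the shNsd2 libraries. The value depended on the control library left out: it was -0.34 without replicate 1 (limma adjusted p = 9.49e-05), -0.18 without replicate 2 (adjusted p = 0.209) and -0.13 without replicate 3 (adjusted p = 0.23). It passed the threshold in limma after GC correction (-0.27, adjusted p = 0.0087) and after quantile normalization (adjusted p = 0.043). It also passed without the libraries that stood apart (-0.33, limma adjusted p = 4.78e-08), where fewer libraries remain and the spread may be understated.

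Slc7a6 (ENSMUSG00000031904.4, chromosome 8, 106168857 to 106198706, + strand) encodes a light chain that exchanges cationic for neutral amino acids. Its values were 10.64, 10.64 and 10.68 in control, 10.74, 10.79 and 10.78 in shNsd2, and 10.60, 10.54 and 10.49 in MCTP libraries. Of the 10 genes it had the smallest MCTP difference, -0.11 (standard error 0.051). It rose by 0.12 with shNsd2 (standard error 0.0348, limma adjusted p = 0.022), although the call was lost without control replicate 2 and without shNsd2 replicate 2 (adjusted p up to 0.0957), and the adjusted p was 0.078 with the replicate block.

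The heavy chain gene Slc3a2 (ENSMUSG00000010095.7, chromosome 19, 8706882 to 8723369, - strand) had values of 13.21, 13.49 and 13.59 in control, 13.54, 13.52 and 13.51 in shNsd2, and 12.91, 12.80 and 13.05 in MCTP libraries. Its MCTP mean was 70.4% of control (difference -0.51, standard error 0.107), a smaller difference than those of the light chains Slc7a11 and Slc7a5. With shNsd2 the difference was 0.09 (limma adjusted p = 0.39), and the shNsd2 libraries lay within the range of the control libraries. The sign turned without control replicate 1 (-0.02).

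Slc7a1 (ENSMUSG00000041313.8, chromosome 5, 148327410 to 148399904, - strand), a carrier of arginine and lysine that needs no heavy chain, had values of 13.08, 13.24 and 13.29 in control, 13.33, 13.35 and 13.39 in shNsd2, and 12.60, 12.53 and 12.55 in MCTP libraries. The order was thus shNsd2 above control above MCTP with no overlap. The MCTP difference was -0.64 (standard error 0.0648). The rise with shNsd2 was 0.15 (standard error 0.054, limma adjusted p = 0.0457) and was lost in 5 of the 6 fits that left out a library, all but that without control replicate 3 (adjusted p from 0.021 to 0.112). The difference was 0.09 without control replicate 1 and 0.07 without the libraries that stood apart.

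The related sodium-dependent exchangers of neutral amino acids, Slc1a4 and Slc1a5, differed in the size of their MCTP values. Slc1a5 (ENSMUSG00000001918.10, chromosome 7, 16781340 to 16798274, + strand), a main entry route for glutamine, had values of 12.18, 12.34 and 12.43 in control, 12.34, 12.40 and 12.43 in shNsd2, and 11.43, 11.37 and 11.40 in MCTP libraries. Its MCTP mean was 53.1% of control (difference -0.91, standard error 0.0686), and its shNsd2 libraries overlapped the control libraries (difference 0.08, limma adjusted p = 0.322). Slc1a4 (ENSMUSG00000020142.6, chromosome 11, 20302180 to 20332713, - strand), which carries alanine, serine and cysteine, had values of 11.64, 11.82 and 11.94 in control, 11.78, 11.81 and 11.81 in shNsd2, and 11.30, 11.20 and 11.31 in MCTP libraries. Its MCTP mean was 69.2% of control (difference -0.53, standard error 0.0806). With shNsd2 its mean was that of the control libraries (difference 0.00, limma adjusted p = 0.988), but the difference was -0.08 without control replicate 1 (adjusted p = 0.131). Without the libraries that stood apart it was also -0.08 and was called lower (limma adjusted p = 0.039), although the spread may be understated in that fit.

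Slc38a1 and Slc38a2 lie near each other on chromosome 15 and encode sodium-coupled carriers that concentrate glutamine, alanine and other small neutral amino acids. Slc38a2 (ENSMUSG00000022462.6, 96687392 to 96699730, - strand) had values of 12.83, 12.83 and 12.86 in control, 12.78, 12.80 and 12.93 in shNsd2, and 12.36, 12.42 and 12.21 in MCTP libraries. Its MCTP mean was 70.3% of control (difference -0.51, standard error 0.0626), and the shNsd2 libraries lay on both sides of the control libraries (difference -0.01, limma adjusted p = 0.932). Slc38a1 (ENSMUSG00000023169.8, 96571418 to 96642913, - strand) had values of 12.77, 12.82 and 12.84 in control, 12.88, 12.90 and 12.96 in shNsd2, and 12.60, 12.60 and 12.54 in MCTP libraries, again with 3 separate groups. Its MCTP difference was -0.23 (standard error 0.048). The rise with shNsd2 was 0.11 (standard error 0.0369, limma adjusted p = 0.0413) and was also lost in 5 of the 6 fits that left out a library, all but that without control replicate 3 (adjusted p up to 0.101). Without the libraries that stood apart the difference was 0.06 (limma adjusted p = 0.0534).

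Slc6a9 (ENSMUSG00000028542.10, chromosome 4, 117834506 to 117875198, + strand) encodes a glycine carrier driven by sodium and chloride. Its values were 11.08, 11.35 and 11.51 in control, 11.72, 11.75 and 11.74 in shNsd2, and 10.37, 10.31 and 10.46 in MCTP libraries. Every shNsd2 library was above and every MCTP library below all control libraries. The MCTP mean was 52.4% of control (difference -0.93, standard error 0.104). Slc6a9 rose with shNsd2 by 0.43 (standard error 0.0887, limma adjusted p = 0.00422) to 134% of control, and the call was kept in all 6 fits that left out a library (difference from 0.31 to 0.52). In the annotation its exons share 1429 bases with Ccdc24, 511 bases with Gm17114 and 46 bases with B4galt2, all on the opposite strand. Of these, only B4galt2 had a value among the deposited genes. Whether reads were counted by strand is not given in the sources used here, so reads of these genes may be included.

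The transporter genes differed in their spread among the control libraries: 6 of the 10 had an SD above the median of all genes, and 4 (Slc7a11, Slc38a2, Slc7a6 and Slc38a1) lay below it. The median SD of the 10 within the control group was 0.118, beside 0.052 for all genes, whereas it was 0.0669 beside 0.0884 in the MCTP group and 0.0295 beside 0.0443 in the shNsd2 group. Control replicate 3 had the highest value of the group for 10 of the 10 genes, beside 30.9% of all genes, and control replicate 1 the lowest for 8, beside 42.8%. The control spread was smallest for Slc7a11 and largest for Slc7a5, with SDs of 0.0112 and 0.216.

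To compare levels between genes, the log2 of the exonic length in kb was subtracted from each value. In the control libraries Slc7a5 had the highest per-length level, 12.25 ± 0.22 (SD, n = 3), followed by Slc3a2 with 11.61 ± 0.20. Then came Slc1a5 (10.25), Slc1a4 (9.83), Slc38a2 (9.70), Slc7a1 (9.68), Slc6a9 (8.95), Slc38a1 (8.70) and Slc7a6 (8.46), and Slc7a11 was last with 7.46 ± 0.01. The control ranges of Slc1a4, Slc38a2 and Slc7a1 overlapped their neighbours in this order, as did those of Slc6a9 and Slc38a1, so these genes could not be ordered beyond their spread. Slc7a11 stayed last in the shNsd2 libraries, with a per-length level of 7.12 ± 0.16, and in the MCTP libraries, with 6.23 ± 0.31. Slc6a9 ranked 7 in the control libraries and 9 in the MCTP libraries. With the length of the principal transcript in place of all exons, an alternative chosen after the data had been examined, Slc3a2 was first with 12.57 and Slc7a5 second with 12.33, and Slc7a11 was last in all 3 groups.

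**Figure D2:**
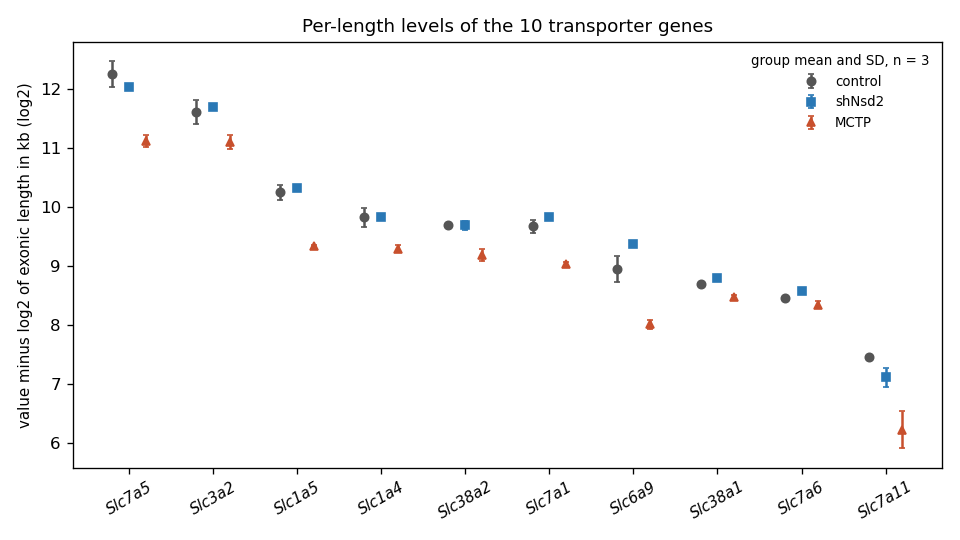
Per-length levels (deposited value minus log2 of the exonic length in kb, vertical axis) of the 10 genes, with points for group means and bars for the SD of 3 libraries, in the order of the control levels. Slc7a5 and Slc3a2 lie highest and Slc7a11 lowest in all 3 groups.

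Genes with a pattern like that of Slc7a11 were sought among 359 genes whose values spanned at least 1 log2 unit over the 9 libraries. The closest were Eif2s2, a subunit of a translation initiation factor (Pearson r = 0.988), the leucine zipper protein gene Crebzf (0.987), the ubiquitin-conjugating enzyme gene Ube2q2 (0.978), Eea1, which tethers early endosomes (0.977), and Itga2, a collagen-binding integrin subunit (0.970). Eif2s2, for example, had group means of 12.72 in control, 12.54 in shNsd2 and 11.84 in MCTP libraries. Among the other members, Slc7a5 ranked 40 (r = 0.899), Slc1a5 ranked 52 (r = 0.887) and Slc6a9 ranked 123 (r = 0.768). The remaining members spanned less than 1 log2 unit and were not compared. These coefficients describe likeness over 9 libraries that share their groups and the libraries that stood apart, and no test was made of them.

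The genes also differ in sequence. The GC content of the longest transcript was lowest for Slc7a11, at 40.7%, and highest for Slc6a9, at 57.0%. After each library was corrected for GC content, the MCTP difference was largest for Slc7a5, at -1.24, in place of Slc7a11, at -1.04. It was -1.01 for Slc1a5, -1.03 for Slc6a9 and -0.41 for Slc38a2, and the median over the 10 genes was -0.64.

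Promoter sequences of RefSeq on GRCm38.p6, from 250 bases before to 50 bases after the start of transcription, were matched for 7 of the 10 genes, with 11 promoters in all. Slc7a5, Slc1a5 and Slc38a1 were not matched. As a description of the sequences only, the promoters were searched on both strands for TGATGNAA, the core of the amino acid response element, and TGACNNNGC, the core of the antioxidant response element. The first was found in 2 of the 7 genes (Slc7a11 and Slc1a4), beside 4.51% of 27018 genes and 3.97% of 32841 promoters. The second was found in 4 (Slc6a9, Slc7a1, Slc7a6 and Slc38a2), beside 14.0% of genes and 12.4% of promoters. No promoter of these genes held both, and nothing on the factors is read from these matches. The promoters of Slc7a11 (chr3:50443564-50443863, - strand), Slc1a4 (chr11:20332664-20332963, - strand) and Slc38a2 (chr15:96699679-96699978, - strand) are given to show the matches, in capitals. That of Slc7a11 holds 2 matches to the first motif, 1 on each strand.
Slc7a11: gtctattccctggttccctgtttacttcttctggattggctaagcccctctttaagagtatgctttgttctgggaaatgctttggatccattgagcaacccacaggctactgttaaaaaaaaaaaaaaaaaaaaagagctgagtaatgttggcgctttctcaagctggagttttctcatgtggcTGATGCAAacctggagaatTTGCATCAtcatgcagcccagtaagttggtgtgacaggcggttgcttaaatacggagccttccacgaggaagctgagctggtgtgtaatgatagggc
Slc1a4: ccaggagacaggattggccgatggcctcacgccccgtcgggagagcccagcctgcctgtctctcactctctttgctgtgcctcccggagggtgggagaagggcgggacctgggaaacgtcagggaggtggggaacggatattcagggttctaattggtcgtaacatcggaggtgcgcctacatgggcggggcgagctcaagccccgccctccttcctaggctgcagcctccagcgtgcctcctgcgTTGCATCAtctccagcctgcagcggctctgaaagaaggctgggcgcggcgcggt
Slc38a2: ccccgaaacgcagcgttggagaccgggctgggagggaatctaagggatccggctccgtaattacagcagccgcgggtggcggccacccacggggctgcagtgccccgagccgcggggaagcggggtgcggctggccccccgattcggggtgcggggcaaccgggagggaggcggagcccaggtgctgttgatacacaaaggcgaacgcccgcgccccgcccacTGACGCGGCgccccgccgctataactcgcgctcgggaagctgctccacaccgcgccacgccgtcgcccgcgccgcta

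Amino acid transporters outside the 10 genes were examined next, from a list of 42 of which 15 had a value and 14 passed the filter. With MCTP, 6 rose and 1 fell at an adjusted p of 0.05 in limma, beside 18.0% and 17.2% of all genes (35.2% in either direction), and the median difference was 0.17. The largest rises were those of Slc43a2, a facilitator of large neutral amino acids (0.65, limma adjusted p = 1.30e-04), and of the lysosomal exporters Pqlc2 for cationic amino acids (0.56, adjusted p = 0.00291) and Ctns for cystine (0.49, adjusted p = 7.48e-04). The sole fall, that of the weakly expressed Slc6a15 (-0.11, adjusted p = 0.0203), was lost in 3 of the 6 fits that left out a library (without control replicate 1 or 2 or MCTP replicate 3) and without the libraries that stood apart, and its sign reversed after GC correction. The split was 8 higher and 0 lower with each library centred on its median, 4 and 0 without control replicate 2, and 9 and 1 without the libraries that stood apart. Over all genes the split in these fits was 2525 and 1709, 1215 and 947, and 3703 and 3872, in that order.

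With shNsd2, 4 of the 14 rose and 5 fell, beside 23.1% and 24.8% of all genes, with a median difference of -0.01, and the same split was found without the libraries that stood apart. The largest rises were those of Slc38a7, a lysosomal carrier of glutamine (0.27, limma adjusted p = 0.00631), the proton-coupled Slc36a1 (0.26, adjusted p = 7.64e-04) and Pqlc2 (0.23, adjusted p = 0.00407). The largest falls were those of Slc36a4 (-0.39, adjusted p = 4.05e-04), of Slc16a10, which carries aromatic amino acids (-0.37, adjusted p = 7.58e-04), and of Slc6a15 (-0.22, adjusted p = 7.11e-04). Ctns, which rose with MCTP, fell with shNsd2 (-0.18, adjusted p = 0.00599).

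**Figure D3:**
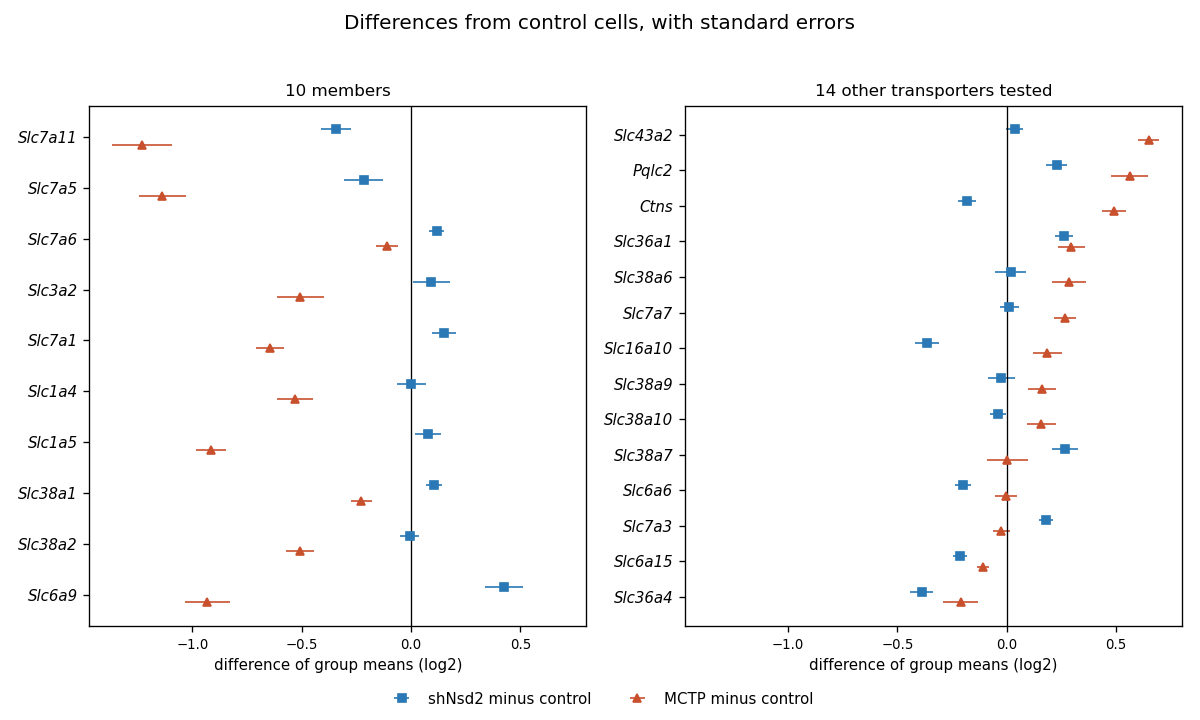
Differences of group means from control (log2, horizontal axis) for the 10 genes on the left and the 14 other transporters tested on the right, with squares for shNsd2, triangles for MCTP and bars for standard errors. The MCTP triangles lie left of 0 for all 10 genes, from -1.23 for Slc7a11 to -0.11 for Slc7a6, and from -0.21 to 0.65 for the others.

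Carriers of the inner mitochondrial membrane had 8 of 9 genes tested. With MCTP, 1 rose and 3 fell, 4 of 8 beside 35.2% of all genes, and the median difference was -0.05. The largest fall was that of the serine carrier Sfxn1 (-0.32, limma adjusted p = 0.00278), which was -0.18 after GC correction. The falls of the aspartate and glutamate carrier Slc25a13 (-0.22, adjusted p = 0.0147) and the ornithine carrier Slc25a15 (-0.24, adjusted p = 0.0201), and the rise of the branched-chain amino acid carrier Slc25a44 (0.32, adjusted p = 0.0112), were each lost when some libraries were left out. The count of calls was 2 without control replicate 1, control replicate 2 or MCTP replicate 1. Calls over all genes in these fits were 2366, 2162 and 2046, in place of 4305. With shNsd2, 3 rose and 1 fell, a share close to the 47.8% of all genes, and the median difference was 0.05. The glycine carrier Slc25a38 (0.34, adjusted p = 5.07e-04), the glutamate carrier Slc25a22 (0.28, adjusted p = 0.00112) and Slc25a44 (0.24, adjusted p = 0.00132) rose, and Slc25a13 fell (-0.33, adjusted p = 1.47e-04). Without the libraries that stood apart, the split was the same with shNsd2, and 2 rose and 3 fell with MCTP.

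Imported cystine is reduced to cysteine and used for glutathione. Of 16 genes for the use of cystine and glutathione, 15 were tested. With MCTP, 7 rose and 2 fell (9 and 4 without the libraries that stood apart), 9 of 15 beside 35.2% of all genes, and the median difference was 0.14. Without the libraries that stood apart, 3703 of all genes rose and 3872 fell, in place of 2198 and 2107. The rises included those of the biosynthetic genes Gclc (0.54, limma adjusted p = 5.18e-04) and Gss (0.69, adjusted p = 0.00193) and of the glutathione peroxidase gene Gpx1 (0.79, adjusted p = 0.0013). The falls were those of Chac1, which encodes an enzyme that degrades glutathione (-1.29, adjusted p = 2.91e-04), and Cth, whose product makes cysteine from cystathionine (-1.14, adjusted p = 4.27e-04). All these calls were kept in the 6 fits that left out a library. With shNsd2, 4 rose and 3 fell (7 and 4 without the libraries that stood apart), 7 of 15 beside 47.8% of all genes, and the median difference was 0.07. The split depended on the scaling and the fit, with 6 and 1 after median centring, 5 and 1 after quantile normalization and 4 and 1 with the replicate block. Over all genes it was 3132 and 2686, 3101 and 2779, and 2105 and 2410 in these fits, in place of 2815 and 3021. Without the libraries that stood apart it was 3660 and 3763 over all genes. Cth rose (0.45, adjusted p = 0.0115), as did Gclm (0.27, adjusted p = 0.00123) and the thioredoxin reductase gene Txnrd1 (0.22, adjusted p = 6.09e-04), and Chac1 had a difference of 0.15 (adjusted p = 0.187). The rise of Cth was 0.23 without the libraries that stood apart. The Chac1 difference was 0.05 without control replicate 1 (adjusted p = 0.512) and 0.27 without control replicate 3 (adjusted p = 0.00803). Chac2 fell (-0.30, adjusted p = 8.72e-04), while the smaller falls of Mpst (-0.13) and Ggt7 (-0.10) were each lost in 4 of the 6 fits that left out a library and with the replicate block.

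Of 20 genes that sense amino acids or relay their supply to the kinase mTORC1, 18 were tested. With MCTP, 4 rose and 3 fell, a share close to the 35.2% of all genes, and the median difference was 0.04. Eif2ak4, which encodes the kinase GCN2 activated by uncharged tRNA, fell by 0.39 (limma adjusted p = 0.00229), and the mTORC1 inhibitor gene Ddit4 fell by 0.38 (adjusted p = 0.00422). The arginine sensor paralog Gatsl2 rose by 0.51 (adjusted p = 7.08e-04). The rises of the leucine sensor gene Sesn2 (0.26, adjusted p = 0.0429) and Lamtor4 (0.28, adjusted p = 0.0297) and the fall of Depdc5 (-0.19, adjusted p = 0.0327) were each lost in at least 4 of the 6 fits that left out a library. The count of calls was 3 without control replicate 1 or 2 or MCTP replicate 1 or 3, 4 without control replicate 3, and 11 without MCTP replicate 2 or without all 3 libraries that stood apart. Calls over all genes moved likewise, from 4305 to between 2046 and 2842 in the fits with 3 or 4 calls. They were 7384 and 7575 in the fits with 11. With shNsd2, 2 rose and 3 fell (2 and 4 without the libraries that stood apart, 2 and 6 after GC correction), 5 of 18 beside 47.8% of all genes, and the median difference was -0.03. After GC correction 3324 of all genes rose and 3359 fell. Sesn2 rose by 0.53 (adjusted p = 1.68e-04) and Gatsl2 by 0.27 (adjusted p = 0.00176), and Lamtor3, a subunit of the lysosomal scaffold of mTORC1, fell by 0.44 (adjusted p = 2.94e-05), as did Sesn1 by 0.27 (adjusted p = 0.00229). The fall of Lamtor2 (-0.11, adjusted p = 0.045) was lost in 4 of the 6 fits that left out a library and with the replicate block.

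All 8 genes for regulators of transporter genes were tested. With MCTP, 1 rose and 4 fell, 5 of 8 beside 35.2% of all genes, and the median difference was -0.18. Atf4 mRNA fell by 0.68 (limma adjusted p = 9.54e-04) and Nfe2l2 mRNA by 0.25 (adjusted p = 0.00696). The falls of Ddit3 (-0.45, adjusted p = 0.0256) and Myc (-0.30, adjusted p = 0.0149) and the rise of Atf3 (0.53, adjusted p = 0.0128) were lost in some of the fits that left out a library, and the count of calls was 3 without control replicate 2, control replicate 3 or MCTP replicate 1. Calls over all genes in these 3 fits were 2162, 2456 and 2046, in place of 4305. With shNsd2, 2 rose and 2 fell, a share close to the 47.8% of all genes, and the median difference was 0.14. Trp53, whose product is known to repress Slc7a11, rose by 0.40 (adjusted p = 9.05e-05), and Myc rose by 0.19 (adjusted p = 0.0264), a call lost without shNsd2 replicate 2 or 3. The difference of Myc was 0.12 without control replicate 1 and 0.10 without the libraries that stood apart. Bach1 fell by 0.26 (adjusted p = 0.00877), a call lost with all 9 libraries in a single fit, and Nfe2l2 fell by 0.23 (adjusted p = 8.93e-04), while Atf4 had a difference of 0.12 (adjusted p = 0.164). The Atf4 difference was 0.04 without control replicate 1 (adjusted p = 0.429) and 0.19 without control replicate 3 (adjusted p = 0.0312). The count was 7 without control replicate 3, where 5135 of all genes were called in place of 5836. Without the libraries that stood apart, 2 rose and 2 fell with shNsd2, and 1 rose and 5 fell with MCTP.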

How the data were processed

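RNA-seq libraries of control, shNsd2 and MCTP-treated NPK cells (3 each) were grouped by their titles. Other alleles of these mice are not reported here. The authors deposited log2-scale values, already scaled between libraries, for 12842 genes. For tumour profiles, the paper's methods describe DESeq2 variance stabilization. The submitters' processing notes name mm9, bcl2fastq 1.8.4, TopHat, Cufflinks, DESeq and DESeq2 without their roles. A further 3 columns matched no sample and were not used. Depth is unknown, and precision was judged from replicates.

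Genes with more than 3.78, the median of the lowest 10% of values, in at least 3 of 6 libraries were compared in R 4.3.3 by the moderated t-test of limma 3.58.1, with the prior variance following the mean value. Genes with a Benjamini-Hochberg adjusted p below 0.05 were called. Spread narrows toward low values, so changes of weakly expressed genes may be understated. Identifiers were matched to GENCODE M21 on GRCm38 (12513, 97.4%), not the build of the notes. The procedure was tested on simulated data.

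Members and lists were chosen with earlier results of these data known. The genes named were the 10 members, Nsd2, the 5 genes most like Slc7a11, and, per list and comparison, at most the 3 largest rises and 3 largest falls past the threshold. Marker genes, the overlapping genes of Slc6a9 and the values of Chac1, Atf4 and Ctns with shNsd2, of Nfe2l2 with MCTP and of Abcc1 stand outside this rule. Alternatives were no filter, all 9 libraries in 1 fit, a replicate block, each library left out, quantile normalization, median centring, no trend, GC correction (lowess, span 0.3) and, added later, leaving out the libraries that stood apart. Figures were drawn with matplotlib 3.10.9.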

Additional observations from a re-analysis of the deposited data

Results flagged for a closer look

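The 10 transporter genes and the list genes named by the rule were searched for opposite directions. For the genes below, every MCTP library lay on one side of all control libraries and every shNsd2 library on the other. Groups that do not overlap were common, with 24.8% to 29.1% of all genes in each direction of each comparison, and nothing is read from the number of these genes. In each case the difference between the effects of MCTP and shNsd2 was not tested, and both effects use the same control libraries. Among the transporter genes studied, the MCTP mean minus the shNsd2 mean was -1.36 on the log2 scale for Slc6a9, -0.80 for Slc7a1, -0.33 for Slc38a1 and -0.23 for Slc7a6, all 4 lower with MCTP and higher with shNsd2. Of the other lists, Cth (-1.59), Myc (-0.48), Sfxn1 (-0.39), Slc25a15 (-0.28) and Depdc5 (-0.26) lay in the same directions, although the shNsd2 differences of Sfxn1, Slc25a15 and Depdc5 from control (0.07, 0.04 and 0.06) did not pass the threshold in limma. That of Sfxn1 was 0.13 after GC correction, where it passed (adjusted p = 0.0108), and 0.04 without the libraries that stood apart (adjusted p = 0.187). Ctns (0.67) and Slc16a10 (0.55) lay in the opposite directions, higher with MCTP and lower with shNsd2, and the MCTP difference of Slc16a10 from control (0.19, limma adjusted p = 0.062) did not pass the threshold, although it did under 5 alternatives, among them the fit without the libraries that stood apart (0.21, adjusted p = 0.00403). Abcc1, of the cystine and glutathione list, lay in the same directions as Ctns but was called in neither comparison, so the rule did not name it.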

How the results depend on the processing

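The number of genes called with shNsd2 was 5836 and was between 4320 and 7423 under the alternatives. With MCTP it was 4305, between 2046 and 7384 with a library left out and 7575 without the libraries that stood apart, an alternative chosen after the data were examined. Calls among the 10 transporter genes with shNsd2 (5) were 1 with all 9 libraries in 1 fit, 2 with the replicate block and between 2 and 5 with a library left out. The median MCTP difference of the 10 genes (-0.59) was between -0.66 and -0.55 with a library left out. No MCTP difference of the 10 genes changed sign under any alternative. Calls among other transporters with MCTP (7) were between 4 and 9 with a library left out, and among the carriers of mitochondria (4) between 2 and 5, sensing genes (7) between 3 and 11, and regulators (5) between 3 and 6. With shNsd2, calls among regulators (4) were between 3 and 7 with a library left out, those among sensing genes (5) were 8 after GC correction, and without the libraries that stood apart calls among cystine and glutathione genes were 11 in place of 7, and among sensing genes with MCTP 11.

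Small shNsd2 differences changed sign, and the cause was not tested. Without the libraries that stood apart that of Slc3a2 was -0.0116, that of Slc1a5 -0.0106 and that of Slc1a4 -0.0847 (limma adjusted p = 0.039). With a library left out, Slc3a2 was between -0.0194 and 0.17, Slc1a5 between 0.01 and 0.13, Slc1a4 between -0.0803 and 0.0728 and Slc38a2 between -0.051 and 0.021. GC correction gave -0.0280 for Slc1a4 and 0.0533 for Slc38a2, and median centring 0.0120 for Slc38a2. With MCTP, GC correction gave 0.0540 for Slc6a15, 0.16 for Sesn2 and 0.18 for Lamtor4, and the call of Depdc5 was lost with the replicate block. With shNsd2, GC correction gave -0.16 for Ggt7. Of the list genes named by the rule, which leaves out the falls of Ctns with shNsd2 and Nfe2l2 with MCTP, 21 of 25 calls with shNsd2 and 13 of 23 with MCTP were kept in all 6 fits that left out a library.

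Same-numbered libraries did not deviate together consistently: the correlations of their deviations were between -0.81 and 0.61. Deviations from a group mean depend on each other, and those of the libraries that stood apart went together across numbers. Whether libraries of the same number were handled together therefore cannot be told from these correlations. The replicate block gave 4515 calls with shNsd2 and 3399 with MCTP. Depth limits cannot be judged without counts.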
